A study of Mus musculus with 18 samples.

Results

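The comparison described here asked whether endothelial cells (ECs), which form the inner lining of vessels, differed in their response to cGAMP between an implanted breast tumour and the normal mammary fat pad. For each gene, the change from PBS to cGAMP in normal ECs was subtracted from the change in implanted ECs, so that a positive difference marks a larger rise, or a smaller fall, in the tumour. The comparison used 12 of the 18 bulk RNA-seq libraries, 3 in each of 4 groups, and left 6 libraries of MMTV-PyMT ECs for a check on the genes found. The normal groups were ECs of wild-type FVB mice whose mammary fat pad received PBS or cGAMP, and the implanted groups were ECs from tumours given the same injections. The implanted tumours had been grown from cultured tumour cells of MMTV-PyMT mice, in which a viral oncogene is active in the mammary epithelium, mixed with Matrigel and placed in the fat pad of female FVB mice. The third tissue was the spontaneous tumour of MMTV-PyMT mice, whose libraries served for the check and for the estimate of the spread that all groups share. All tissues were collected 3 hours after the injection, and live CD31+ CD45- cells were sorted. The mice came from several independent experiments, and which library belongs to which experiment was not stated, so the p-values cover the spread between these libraries, which may be partly technical.

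cGAMP is a cyclic dinucleotide that binds STING, an adaptor protein on the endoplasmic reticulum that lies downstream of the DNA sensor cGAS. Bound STING recruits the kinase TBK1, which activates the transcription factor IRF3, and it also feeds into NF-kB, so that type I interferon, interferon-stimulated genes, chemokines and adhesion molecules follow. In tumour vessels, activation of STING is known for recruiting leukocytes and for the collapse of the vessels, in which tumour necrosis factor and cell death genes have a part.

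The table listed 16248 genes, of which 13983 were tested, as FPKM (fragments for each kilobase of a gene, scaled to make libraries of unlike size comparable). The 18 libraries held 9184556 to 12200414 recovered reads, a 1.33-fold range. All 8 EC markers were listed in each library, with a sum of 898 to 1796 FPKM over the 12 libraries. Of 19 leukocyte markers, 15 were listed, although CD45- cells had been sorted. Their sum was 96.1 to 162 FPKM in normal PBS, 82.7 to 211.5 in normal cGAMP, 138 to 220.3 in implanted PBS and 175 to 653.5 in implanted cGAMP libraries. Implanted cGAMP library 2 held the 653.5 FPKM, far above its 2 replicates, and normal cGAMP library 1 was the highest of its group. Where leaving out these 2 libraries changed the calls of a described list or gene, the result without them is given beside it. All 18 epithelial markers were listed, with sums of 590 to 802 FPKM in normal and 516 to 1379 FPKM in implanted ECs, and 9 fibroblast markers summed to 86.2 to 172 FPKM in normal and 285 to 739 FPKM in implanted ECs. None of 6 adipocyte markers was listed. The part of these other cell types in the results was not tested. In bulk samples, fewer cells of a type and less RNA per cell cannot be told apart.

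**Figure D1:**
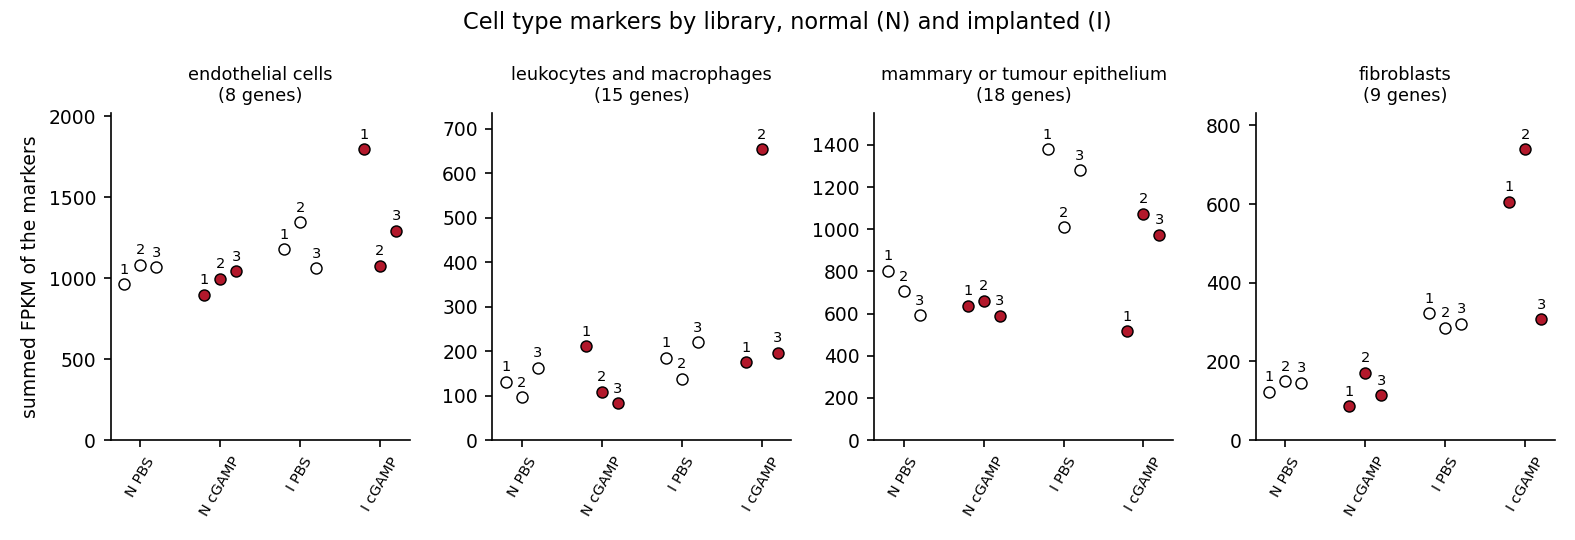
Summed FPKM of the listed markers of 4 cell types (vertical axis) in each library of normal (N) and implanted (I) ECs with PBS (white) or cGAMP (red), numbered by replicate. Implanted cGAMP library 2 sits at 653.5 FPKM of leukocyte markers, above all other libraries, while the endothelial markers lie between 898 and 1796 FPKM.

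The cGAMP effect differed between the tumour and the normal fat pad for 655 genes (4.68% of those tested), at an adjusted p under 0.05 and a log2 difference of at least 1 (limma on log2(FPKM + 1), Benjamini-Hochberg adjustment). Of these, 524 were called higher (3.75%) and 131 lower (0.937%), so 80% of the calls were toward a larger rise or a smaller fall in implanted ECs. This split depends on how the libraries were scaled. With FPKM scaled to total reads instead of the deposited median scaling, the median difference of all tested genes moved from 0.04 to -0.19, and 254 genes were called higher against 373 lower (40.5% higher). All 254 and 131 of the 373 were also called on the deposited scaling. Quantile normalization gave 360 higher and 205 lower (63.7% higher). Without the 2 libraries that stood apart in leukocyte markers, 680 genes were called higher and 190 lower, and 482 and 110 of them were also called with all libraries. Without the fold limit, 1751 genes (12.5%) passed above 0 and 851 (6.09%) below it. The genes on either side of the fold limit were Fmo1 at 1.003, called, and Vwf at 0.998, not called. Without the 2 libraries that stood apart Vwf was at 1.23 and was called higher.

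The 524 genes called higher mostly rose with cGAMP in the tumour. Their median effect was 1.32 on the log2 scale in implanted ECs, with 514 of 524 above 0, and -0.02 in normal ECs, with 255 above 0. The cGAMP effect was called with the fold limit for 7.22% of tested genes in implanted ECs (6.13% higher, 1.09% lower) and 3.7% in normal ECs (3.02% higher, 0.687% lower). It passed at an adjusted p under 0.05 above 0 for 20.3% and below 0 for 18.8% of all tested genes in implanted ECs, and for 13.7% and 18.2% in normal ECs. By that test, 260 rose in implanted ECs and did not pass in normal ECs, 134 rose in both, 80 rose in implanted and fell in normal ECs, and 43 fell in normal ECs and did not pass in implanted ECs. The 131 genes called lower had a median effect of -0.64 in implanted and 0.60 in normal ECs. Among them, 50 fell in implanted ECs and did not pass in normal ECs, 35 rose in normal ECs and did not pass in implanted ECs, 30 fell in implanted and rose in normal ECs, and 11 rose in both.

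**Figure D2:**
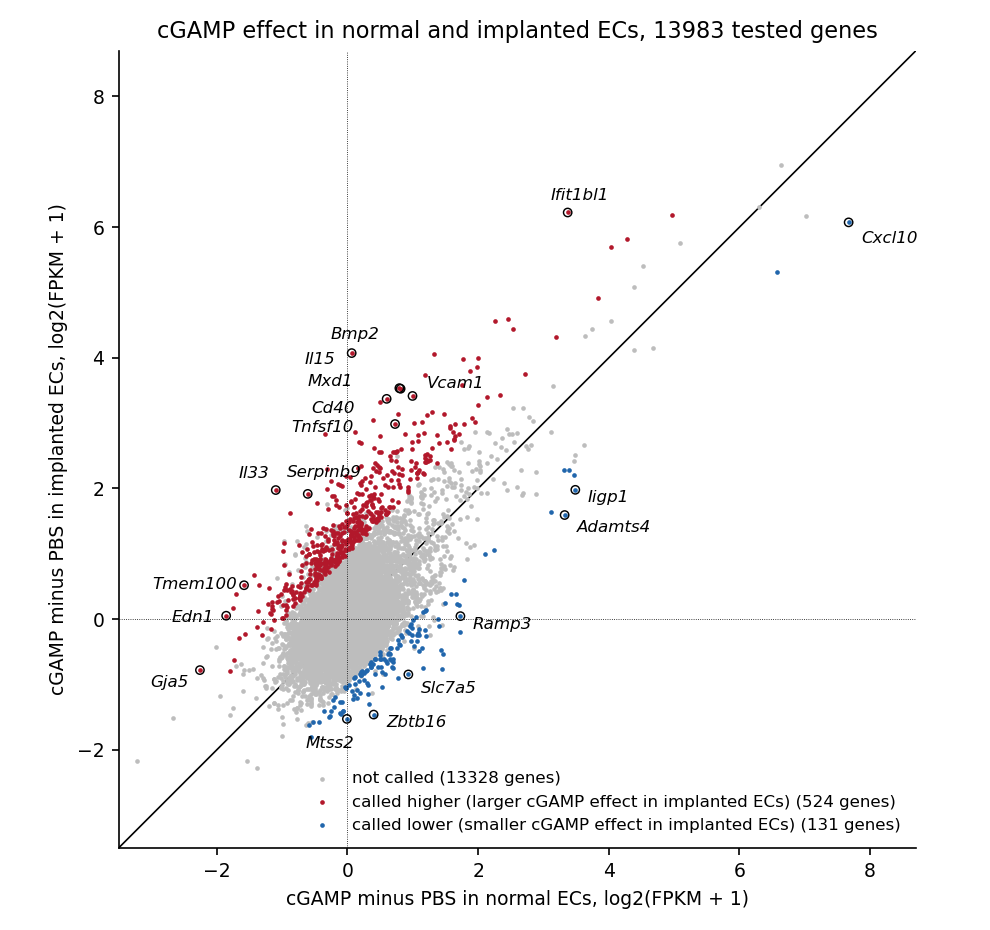
Each point is a tested gene, with its cGAMP minus PBS change in normal ECs on the horizontal and in implanted ECs on the vertical axis, both on the log2(FPKM + 1) scale. Called genes are coloured, 524 above the diagonal of equal effects (red) and 131 below it (blue).

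The levels in the 2 tissues were set side by side. For the genes called higher, the PBS level was above that of normal ECs in 241 of 524 (46%), near the 51.1% of all tested genes, and the cGAMP level was above it in 465 (88.7%). For the genes called lower the order turned round. Their PBS level was higher in implanted ECs in 110 of 131 (84%), and their cGAMP level in 27 (20.6%). A high PBS level enters the difference with a minus sign, so these shares are partly set by the arithmetic of the comparison.

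Bmp2, a ligand of the TGF-beta superfamily (chr2:133552159-133562885), had the largest difference of the genes that reached 5 FPKM. It was at 7.27, 7.02 and 9.45 FPKM in normal PBS and at 8.2, 7.25 and 9.45 FPKM in normal cGAMP libraries. In implanted ECs it was at 19.1, 8.2 and 10.7 FPKM with PBS and at 352, 170.5 and 169 FPKM with cGAMP. The normal groups overlapped, whereas each implanted cGAMP library lay far above all others. The difference was 4.01 ± 0.40 (log2, SE; limma adjusted p = 1.08e-05), and it was 4.17 without the 2 libraries that stood apart.

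Il15, a cytokine that sustains natural killer and memory T cells (chr8:82331632-82403222), followed a like pattern. It was at 2.51, 2.24 and 2.2 FPKM in normal PBS, 4.94, 5.46 and 4.15 in normal cGAMP, 4.54, 4.29 and 3.27 in implanted PBS and 84, 44.9 and 48.1 FPKM in implanted cGAMP libraries. Both tissues rose without overlap, by 0.81 in normal and 3.53 in implanted ECs on the log2 scale (difference 2.71 ± 0.27, limma adjusted p = 1.05e-05). Cd40, a co-stimulatory receptor of the TNF receptor family (chr2:165055627-165072948), was at 0.671, 0.594 and 0.704 FPKM in normal PBS, 2.05, 1.46 and 1.11 in normal cGAMP, 4.18, 4.21 and 3.12 in implanted PBS and 63.1, 39.8 and 46.1 FPKM in implanted cGAMP libraries. The groups did not overlap in either tissue, although the change of 0.60 in normal ECs did not pass (limma adjusted p = 0.0655). The log2 difference of Cd40 was 2.77 ± 0.34. Mxd1, which competes with MYC for its partner MAX, went from 3.43 ± 0.25 to 6.69 ± 0.51 FPKM in normal ECs (mean ± SD, n = 3) and from 6.78 ± 0.31 to 90.3 ± 17.3 FPKM in implanted ECs, a log2 difference of 2.74 ± 0.16.

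The other genes among the 12 largest were Ms4a6b, Il33, Ifit1bl1, Gm10851, Prkcq, Phf11b, Irf5 and H2-T24, with log2 differences of 2.61 to 3.17. Irf5 is a transcription factor of the interferon regulatory family. It went from 1.19 to 2.01 FPKM in normal ECs, where the change did not pass, and from 1.26 to 17.5 FPKM in implanted ECs. H2-T24 is a non-classical MHC class I gene. It went from 12.1 to 9.51 FPKM in normal ECs, where the change did not pass, and from 6.67 to 36.9 FPKM in implanted ECs. Its reads and those of Ifit1bl1 and Phf11b may be shared with close relatives in the genome, which makes their counts uncertain. Ifit1bl1 was at 0.112 to 0.408 FPKM in normal PBS libraries, and with voom on the recovered reads, which takes no pseudocount of 1 FPKM, its difference was 1.98 and did not pass (limma adjusted p = 0.157). Gm10851, annotated as antisense, lies within the span of Pfkfb3 on the other strand, and their reads cannot be told apart if the counting ignored strand. Ms4a6b, Prkcq and Irf5 are also expressed in leukocytes. In normal cGAMP library 1, with the most leukocyte marker signal of its group, Ms4a6b was at 6.89 FPKM against 0.396 and 0.821 in the other two, Prkcq at 4.68 against 1.83 and 1.29, and Irf5 at 3.33 against 1.32 and 1.39. Leaving out that library, the highest of its group for all 3 genes, together with implanted cGAMP library 2 gave log2 differences of 3.86, 3.26 and 2.83. The part of leukocytes in these values was not tested.

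**Figure D3:**
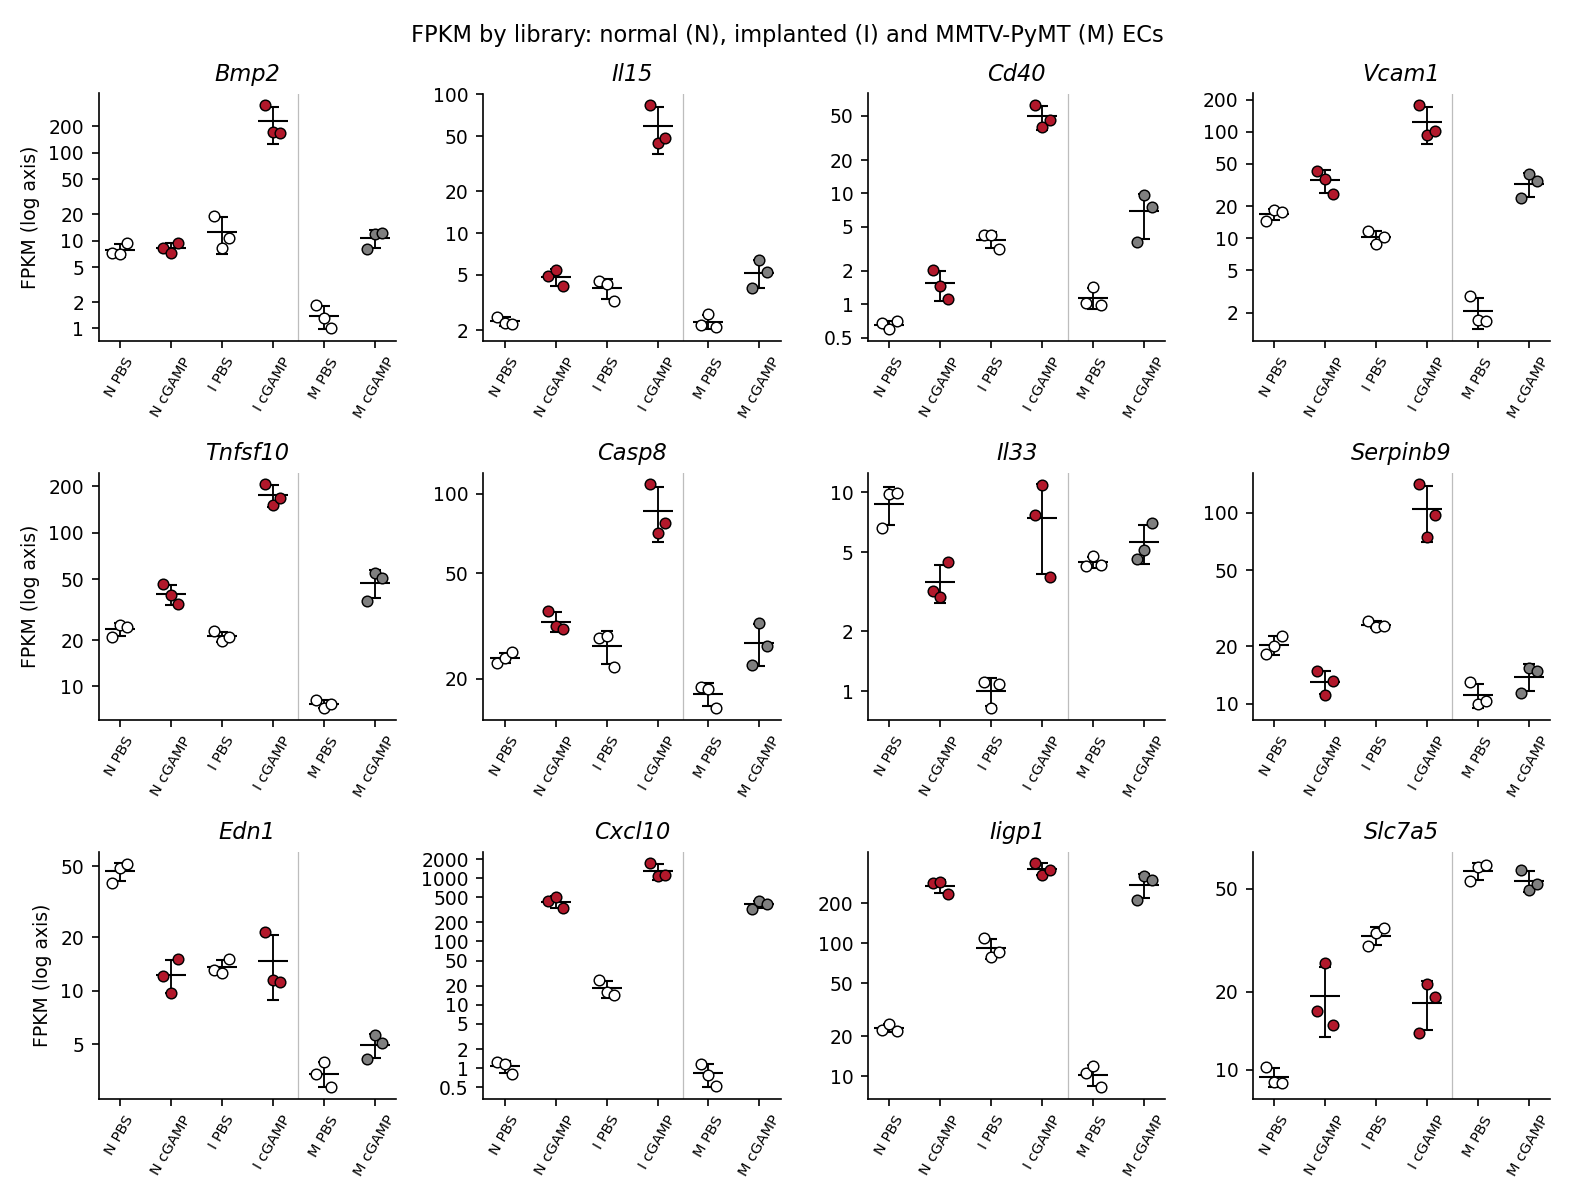
FPKM on a log axis of 12 genes in each library, by group, with the mean (bar) and SD (whiskers, n = 3); N, normal, I, implanted, M, MMTV-PyMT ECs; white, PBS, red or, for MMTV-PyMT, grey, cGAMP. The 3 implanted cGAMP libraries stand above all normal libraries for Bmp2, Il15, Cd40, Vcam1, Tnfsf10, Casp8 and Serpinb9, whereas the PBS and cGAMP libraries of Edn1 were apart in normal ECs and overlapped in implanted ECs, and Slc7a5 went in opposite directions.

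For 110 of the called genes, cGAMP had opposite effects that each passed the test, 80 of them rising in the tumour and falling in the fat pad. Genes were called for a large difference, which favours opposite signs, so this count is partly set by the selection. The same count was not taken over genes that were not called. Il33, an alarmin held in the nucleus of ECs, was at 6.57, 9.76 and 9.94 FPKM in normal PBS and fell to 3.21, 2.99 and 4.43 FPKM with cGAMP. In implanted ECs it was at 1.11, 0.822 and 1.09 FPKM with PBS and rose to 7.71, 10.9 and 3.73 FPKM. No group overlapped its own control, and the log2 difference was 3.07 ± 0.35 (limma adjusted p = 3.04e-05). Serpinb9, an inhibitor of granzyme B that shields cells from cytotoxic lymphocytes, fell from 20.3 ± 2.2 to 13 ± 1.8 FPKM in normal ECs and rose from 26 ± 1.1 to 104 ± 34 FPKM in implanted ECs (mean ± SD, n = 3).

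A further 7 genes with the largest differences of this kind rose in implanted and fell in normal ECs, namely Tmem158, Il2ra, Nuak1, Tmem100, Apod, Akr1c14 and Tpst1, with log2 differences of 1.90 to 2.50. Il2ra was at 1.07, 5.95 and 1.16 FPKM in implanted cGAMP libraries, against 0.297 to 0.656 FPKM in implanted PBS libraries, so library 2, with the most leukocyte marker signal, was far above its replicates. Without that library its difference was 1.56, and it was 1.66 without both libraries that stood apart. Tmem100, a membrane protein that depends on BMP signalling in ECs, fell from 18 to 5.42 FPKM in normal ECs, against 0.725 and 1.49 FPKM in implanted ECs. Nuak1, a kinase related to AMPK, fell from 32.6 to 11.8 FPKM in normal ECs and rose from 4.6 to 8.08 FPKM in implanted ECs. In the opposite direction stood Gm37982, an RNA annotated as antisense, at 0.762 and 2.93 FPKM in normal and 2.02 and 0.79 FPKM in implanted ECs, a log2 difference of -1.91. With a pseudocount of 5, Gm37982 (-0.74) and Il2ra (0.94) were not called.

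Among the genes called lower, Cxcl10, the interferon-induced chemokine that attracts T cells through CXCR3 (chr5:92346638-92348889), rose steeply in both tissues. It was at 1.24, 1.16 and 0.82 FPKM in normal PBS, 439, 506 and 333 in normal cGAMP, 24.9, 16.1 and 14.5 in implanted PBS and 1747, 1071 and 1109.8 FPKM in implanted cGAMP libraries. The cGAMP level was thus higher in the tumour, but so was the PBS level, and the rise was 6.07 in implanted against 7.67 in normal ECs on the log2 scale (difference -1.60 ± 0.31, limma adjusted p = 0.00195). With a pseudocount of 5 in place of 1 the difference was -0.33 and was not called.

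Slc7a5, the transporter of large neutral amino acids, moved in opposite directions. It was at 10.3, 8.91 and 8.84 FPKM in normal PBS and at 16.9, 25.8 and 14.9 FPKM in normal cGAMP libraries. In implanted ECs it fell from 29.9, 33.7 and 35.2 to 13.8, 21.4 and 19.1 FPKM, so that the cGAMP levels of both tissues met (difference -1.78 ± 0.24). Ramp3, which pairs with the adrenomedullin receptor, rose from 2.2 to 9.74 FPKM in normal ECs and was at 17.9 and 18.2 FPKM in implanted ECs, where the change did not pass, and was not called with a pseudocount of 5 (-0.99). Adamts4, a secreted protease of the extracellular matrix, rose in both, from 11.3 to 123 FPKM in normal and from 103 to 322 FPKM in implanted ECs.

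Zbtb16, a zinc finger transcription factor, fell from 5.75 to 1.38 FPKM in implanted ECs and had 20.8 and 27.6 FPKM in normal ECs, where the change did not pass (log2 difference -1.86). Mtss2, a membrane and actin binding protein, fell from 16.2 to 5.04 FPKM in implanted ECs and was at 16.6 and 16.7 FPKM in normal ECs. Trim16, a protein of the tripartite motif family, rose from 6.71 to 16 FPKM in normal ECs and fell from 13.1 to 9.48 FPKM in implanted ECs. The other 4 of the 12 genes with the largest negative differences, beside Iigp1, were Snord49a, Gm22358, Gm22884 and Gm20403. The first 3 are small nucleolar RNAs, with as few as 2, 4 and 2 recovered reads in a library, and Gm20403 had as few as 1, so these differences rest on few counts. The calls of Gm22358, Gm22884 and Gm20403 were lost under 9 of 29, 12 of 29 and 13 of 28 alternatives, among them the fit on the 12 libraries alone. Leaving out single libraries gave log2 differences as small as -1.39 for Gm22358 (without normal PBS library 2), -1.55 for Gm22884 (without implanted cGAMP library 3) and -1.21 for Gm20403 (without implanted cGAMP library 2), none of them called. Without the 2 libraries that stood apart, Gm22358 (-1.97) and Gm22884 (-1.80) were not called.

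Of 33 interferon-stimulated genes, 5 were called higher and 1 lower, with a median difference of 0.54 against 0.04 over all tested genes and -0.04 with quantile normalization. With quantile normalization 3 were called higher and 6 lower, with scaling to total reads 3 and 4, and without the 2 libraries that stood apart 6 and none. The list's median effect was 2.61 in implanted and 2.39 in normal ECs. Mx1, a GTPase that blocks virus replication, was called with 0.269, 0.334 and 0.122 FPKM in normal PBS, 21.1, 22.1 and 15.4 in normal cGAMP, 0.877, 0.597 and 0.401 in implanted PBS and 72.5, 86.2 and 89.8 FPKM in implanted cGAMP libraries (log2 difference 1.66). Cmpk2, a nucleotide kinase of the mitochondrion, had a difference of 1.22, the ubiquitin ligase Herc6 1.17, Trim30a 1.73 and Oas3, which makes the second messenger of RNase L, 1.81. The differences of Mx1 and Oas3 rest on the pseudocount, and their PBS levels in normal ECs were under 1 FPKM. With voom on the recovered reads they were 0.74 and 0.12, neither called, and Herc6 lost its call with quantile normalization and scaling to total reads. Cmpk2 lost its call with the same 2 scalings (0.47 and 0.88) and without normal cGAMP library 3 (0.98). Reads of the Oas and Trim30 families may be shared with close relatives.

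Ifit1, a sensor of foreign RNA caps, was the only member of that list called lower, at 6.98 ± 1.79 and 756 ± 107 FPKM in normal and 16.9 ± 3.8 and 703 ± 33 FPKM in implanted ECs (mean ± SD, n = 3; log2 difference -1.26). That call was lost without the 2 libraries that stood apart (-1.22), with a pseudocount of 5, and without normal cGAMP library 1 (-1.19) or 2 (-1.22), normal PBS library 1 (-1.23) or 3 (-1.13) or implanted PBS library 1 (-1.10). Irf9 (-0.73) and Rtp4 (-0.75) passed below 0 without reaching the fold limit, and Ifih1 passed above 0 at 0.70. Irf7, the regulator that amplifies interferon, rose in both tissues, from 5.84 to 34.7 and from 46.3 to 191 FPKM, and its difference of -0.30 did not pass (limma adjusted p = 0.739). Tmem173, the gene of STING itself, rose from 17.5 ± 0.7 to 28 ± 4.7 FPKM in normal and from 36.5 ± 3.5 to 82.3 ± 10.3 FPKM in implanted ECs, a difference of 0.51 that did not pass (limma adjusted p = 0.0984).

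The immunity-related GTPases (Irg) and the guanylate-binding proteins (Gbp) attack the vacuoles of intracellular parasites and are typical of the interferon-gamma response. Their genes lie in families of close copies, so their counts are uncertain. Of 15 Gbp and Irg genes, 4 were called lower (Iigp1, Irgm1, Irgm2 and Tgtp1) and Gbp9 was called higher, while Igtp (-0.98) and Gbp7 (0.76) passed on either side without reaching the fold limit. Iigp1 was at 22.4, 24.8 and 22 FPKM in normal PBS, 287, 287 and 234 in normal cGAMP, 109.5, 79.6 and 86.4 in implanted PBS and 404, 329 and 356 FPKM in implanted cGAMP libraries. As for Cxcl10, the PBS level differed by a larger factor between the tissues than the cGAMP level did, and the log2 difference was -1.51 ± 0.23. Irgm1 had a difference of -1.26, Irgm2 -1.04 and Tgtp1 -1.11, or -0.997, not called, without the 2 libraries that stood apart. Irgm2 was not called without them either (-0.89), which left 2 of the list called lower. Tgtp1 also lost its call without implanted PBS library 1 (-0.9999). With a pseudocount of 5 Irgm1, Irgm2 (-0.79) and Tgtp1 were not called. Irgm2 also lost its call without implanted PBS library 1, implanted cGAMP library 2, normal PBS library 1 or 3, or normal cGAMP library 1. Gbp9 lost its call with quantile normalization (0.81) and scaling to total reads (0.95), where Igtp was called lower (-1.62 and -1.30). The list's median difference was 0.15, although its median effect was lower in implanted (2.29) than in normal ECs (2.54), and it changed sign with scaling to total reads (-0.17) and quantile normalization (-0.35).

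Promoter sequence was read from RefSeq (GRCm38.p6) for genes on either side of the difference, to show the motif by which interferon-activated factors bind. The interferon-stimulated response element core was searched on both strands as GAAA, any 2 bases and GAAA, from 250 bases before to 50 after each start. It was present in 7.99% of 463 windows of genes called higher and 6.32% of 95 windows of genes called lower, against 3.07% of 12584 windows of tested genes and 3.44% of all 32851 windows. Windows were found for 375 of 524 genes called higher and 80 of 131 called lower. The stretches are printed 5′ to 3′ on the strand of the gene with the motif in capitals, and a motif on the other strand appears as TTTC, any 2 bases and TTTC. The Irgm1 window held a second match that overlaps the one shown. Phf11b, Ifit1bl1 and Serpinb9 were called higher, and Irgm1, Tgtp1 and Cxcl10 lower.
Phf11b, chr14:59341346-59341405, minus strand: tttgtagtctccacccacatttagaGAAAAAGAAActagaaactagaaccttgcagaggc
Ifit1bl1, chr19:34602038-34602097, minus strand: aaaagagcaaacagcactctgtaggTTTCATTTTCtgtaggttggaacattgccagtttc
Serpinb9, chr13:33004470-33004529, plus strand: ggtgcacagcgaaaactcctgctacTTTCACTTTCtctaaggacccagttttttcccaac
Irgm1, chr11:48871421-48871469, minus strand: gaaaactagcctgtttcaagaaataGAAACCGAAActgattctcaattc
Tgtp1, chr11:48992289-48992348, minus strand: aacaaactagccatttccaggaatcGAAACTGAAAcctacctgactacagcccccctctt
Cxcl10, chr5:92349068-92349127, minus strand: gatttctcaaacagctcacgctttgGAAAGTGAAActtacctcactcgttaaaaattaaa

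The Cxcl10 window also held an NF-kB motif, searched as GGGA, any 2 bases and TTCC, and shown in capitals in the next stretch, which 1.51% of the windows of genes called higher, 3.16% of those called lower and 1.55% of those of tested genes held. Csf1, called higher, held one on the other strand, where it reads GGAA, any 2 bases and TCCC. The AP-1 motif TGANTCA stood in 7.78%, 9.47% and 5.45% of the same windows, and the GAS motif TTCNNNGAA, for interferon-gamma activated sites, in 7.34%, 8.42% and 6.86%. Over all windows the shares were 1.47% for the NF-kB motif, 7.81% for AP-1 and 8.3% for GAS. For AP-1 and GAS, the share in genes called higher was thus above that of tested genes and no larger than that of all windows. Motifs may overlap in these counts, and a match is a run of letters and not a bound site.
Cxcl10, chr5:92349014-92349073, minus strand: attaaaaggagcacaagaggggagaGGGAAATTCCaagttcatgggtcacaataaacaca
Csf1, chr3:107760589-107760648, minus strand: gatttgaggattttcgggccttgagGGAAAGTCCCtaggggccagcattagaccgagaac

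The list of chemokines and cytokines held the largest share of calls, 9 of 22 tested genes higher and Cxcl10 lower, with a median difference of 0.84. The list's median effect was 2.27 in implanted and 0.81 in normal ECs. Either other scaling gave 6 higher and 3 lower, and without the 2 libraries that stood apart 7 were called higher and 1 lower. Tnfsf10, the death ligand TRAIL (chr3:27317028-27342427), was at 21, 25.3 and 24.4 FPKM in normal PBS, 46.1, 39.1 and 34.5 in normal cGAMP, 22.8, 19.7 and 21 in implanted PBS and 208, 151 and 169 FPKM in implanted cGAMP libraries. The tissues had near-equal PBS levels and parted with cGAMP (log2 difference 2.26 ± 0.21, limma adjusted p = 8.68e-06). Csf1, the growth factor of macrophages, went from 12.9 to 22.3 FPKM in normal and from 8.73 to 56.4 FPKM in implanted ECs, a log2 difference of 1.81.

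The other members called higher were Il15, Il33, Ccl2, Ccl5, Ccl7, Cxcl16 and Il7, with log2 differences of 1.04 to 3.07. Ccl2 and Ccl7, which attract monocytes, reached 233 ± 146 and 52.3 ± 23.2 FPKM in implanted cGAMP libraries, against 40.4 ± 22 and 10.4 ± 4.3 FPKM in normal ones (mean ± SD, n = 3). Ccl2 (1.54, limma adjusted p = 0.0458) lay close to the threshold, and its call was lost under most alternatives, among them leaving out the 2 libraries that stood apart (1.51). Cxcl16 was not called without those 2 libraries either (0.68), nor in the fit on the 12 libraries alone. Its call was also lost with both other scalings, with a pseudocount of 0.1 or 5, with voom and without several single libraries. Ccl7 lost its call with voom on the recovered reads (1.76, limma adjusted p = 0.304), and Il7 with a pseudocount of 5 (0.49). Ccl5 rose from 1.34 to 32.9 FPKM in normal and from 2.93 to 115 FPKM in implanted ECs. Its call was lost with both other scalings, a pseudocount of 0.1 (0.77) and voom (0.71), and without several single libraries. Cxcl9, the companion of Cxcl10, had a difference of -0.96 that did not pass (limma adjusted p = 0.137), with 5.08 and 73.1 FPKM in normal and 235 and 1539 FPKM in implanted ECs. It was called lower with quantile normalization (-1.72), with scaling to total reads (-1.30) and without implanted cGAMP library 1 (-1.26). Tnf, the founding member of the TNF family, was at 2.46 and 21 FPKM in normal and 8.98 and 36.1 FPKM in implanted ECs, with a difference of -0.77 that did not pass (limma adjusted p = 0.169), and was called lower under the same 2 scalings (-1.23 and -1.11).

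Of 22 genes of the NF-kB pathway and its feedback, 4 were called higher and none lower, and 11 passed above 0 without regard to the fold limit (12.5% of all tested genes did). With scaling to total reads 2 were called higher and with quantile normalization 1. Without the 2 libraries that stood apart 5 were called higher, Nfkbie (1.10) being added. The 4 were the signalling adaptor Traf1, the ubiquitin ligase Birc2, Tnip1, which restrains NF-kB, and the TNF receptor Tnfrsf1b. Tnip1 went from 11.6 to 20.7 FPKM in normal and from 21.5 to 109 FPKM in implanted ECs (log2 difference 1.44), and lost its call with quantile normalization. Traf1 was at 1.78 and 1.25 FPKM in normal ECs and at 1.41 and 5.42 FPKM in implanted ECs (1.72, or 0.81 and not called with a pseudocount of 5). Birc2 had a difference of 1.03, and its call was lost with a pseudocount of 5 and both other scalings, and without implanted PBS library 3 (0.987), implanted cGAMP library 1 (0.890) or normal cGAMP library 3 (0.933). Tnfrsf1a, the main receptor of TNF, was at 92.1 and 102 FPKM in normal and 79.3 and 76.8 FPKM in implanted ECs, with a difference of -0.20 (limma adjusted p = 0.356).

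Vcam1 and Icam1, which hold leukocytes to the vessel wall, were the 2 of 14 adhesion molecules that were called, both higher. Without the 2 libraries that stood apart Icam2 was called higher as well (1.11). Vcam1 (chr3:116109949-116129688) was at 14.4, 18.3 and 17.9 FPKM in normal PBS, 43.2, 36.3 and 25.9 in normal cGAMP, 11.7, 8.86 and 10.3 in implanted PBS and 179, 93 and 101 FPKM in implanted cGAMP libraries. All cGAMP libraries lay above their PBS libraries, and the log2 difference was 2.42 ± 0.35 (limma adjusted p = 0.000205). Icam1 rose from 25.8 to 52.9 FPKM in normal and from 20.6 to 144 FPKM in implanted ECs (1.72 ± 0.30). The selectins, which catch leukocytes first, showed no difference that passed. Sele had 0.12 (limma adjusted p = 0.89) and Selp -0.19 (0.764), and Selp rose in both tissues, from 43.1 to 102 and from 19.2 to 37.5 FPKM.

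Cell death genes were called higher in 8 of 32 cases and lower in 1, the TRAIL receptor Tnfrsf10b (-1.09), and 15 passed above 0. The counts depend on the scaling, with 2 higher and 2 lower when scaled to total reads and 3 and 1 with quantile normalization, and they were 7 and none without the 2 libraries that stood apart, where Tnfrsf10b was at -0.99. Casp8, the initiator caspase of death receptors (chr1:58795374-58847503), was at 23, 24 and 25.1 FPKM in normal PBS, 36, 31.6 and 30.7 in normal cGAMP, 28.3, 28.9 and 22.1 in implanted PBS and 109, 70.8 and 77.8 FPKM in implanted cGAMP libraries. Both tissues rose without overlap, more so the tumour (log2 difference 1.22 ± 0.22, limma adjusted p = 0.00106). That call was lost with quantile normalization and with scaling to total reads. Casp2 had the smallest p of the list, at 7.11 and 6.06 FPKM in normal and 6.71 and 17.6 FPKM in implanted ECs (1.48 ± 0.13, limma adjusted p = 4.4e-06).

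Others of the death genes called higher were Casp1 (1.49) and Gsdmd (1.30), the protease and the pore of pyroptosis, the receptor Fas (1.15), the BH3-only gene Bbc3 (1.10) and Cflar (1.08), an inhibitor of Casp8. Of these, Gsdmd, Bbc3 and Cflar lost the call with both other scalings and Fas with scaling to total reads, and Bbc3 was at 0.92, not called, without the 2 libraries that stood apart. Of the mitochondrial arm, Bid (0.56) and Bak1 (0.63) passed, Bcl2, which opposes death, passed below 0 (-0.94), and Apaf1 (0.62) and Bax (-0.06) did not pass (limma adjusted p = 0.152 and 0.815).

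Genes of vessel quiescence and of arterial identity were called in 1 direction, and most of those called fell with cGAMP in normal ECs. Of 16 shear stress and quiescence genes, 4 were called higher, and the list's median effect was -0.39 in normal and 0.29 in implanted ECs. Edn1, the vasoconstrictor endothelin (chr13:42301476-42307990), was at 40.4, 48.6 and 51.1 FPKM in normal PBS and at 12.1, 9.77 and 15 FPKM in normal cGAMP libraries. In implanted ECs it was at 13.1, 12.5 and 15.1 FPKM with PBS and 21.4, 11.4 and 11.2 FPKM with cGAMP, so that only the normal groups were apart (difference 1.91 ± 0.28). Klf2 and Klf4, transcription factors induced by laminar flow, fell in normal and rose in implanted ECs. Klf4 went from 112 to 75.9 and from 16.5 to 31.8 FPKM (1.45), and Klf2 from 158 to 96.6 and from 44 to 69.7 FPKM (1.35, call lost with quantile normalization). Sod3, an extracellular superoxide dismutase, was the other gene called, at 1.27, and passed in neither tissue on its own. Its adjusted p of 0.0476 in limma lay close to the threshold, and its call was lost under most alternatives, among them leaving out the 2 libraries that stood apart (1.01). S1pr1, of the same list, was called higher without those 2 libraries (1.03).

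Of 22 arterial and Notch genes, 6 were called higher and none lower (2 higher with scaling to total reads and 3 with quantile normalization), while the list's median effect was -0.74 in normal and -0.31 in implanted ECs. Gja5, a connexin of arterial ECs, fell in both, from 35, 30.2 and 33.1 to 8.51, 4.9 and 5.25 FPKM in normal and from 12.5, 12.7 and 11.8 to 6.89, 6.21 and 7.17 FPKM in implanted ECs. The fall was steeper in normal ECs (difference 1.48 ± 0.23). Hey2, a Notch target, fell from 3.54 to 1.5 FPKM in normal ECs and was at 0.384 and 0.885 FPKM in implanted ECs (1.29), and the connexin Gja4 (1.21), the Notch ligand Dll1 (1.11), the Notch target Hes1 (1.03) and the Notch-modifying enzyme Lfng (1.01) completed the 6. Gja4 and Hes1 lost the call with both other scalings, and Hey2 with a pseudocount of 5 (0.52). Hes1 also lost it with a pseudocount of 5 (0.93) and without several single libraries. Lfng lost it without the 2 libraries that stood apart (0.99), with scaling to total reads (0.78), voom (0.93) and a pseudocount of 0.1 or 5. The call of Lfng was also lost without several single libraries. Cxcr4, of the same list, was called higher without the 2 libraries that stood apart (1.01). The call of Dll1 was lost with both other scalings, with a pseudocount of 5 and without implanted cGAMP library 1 (0.982). Of 9 venous genes, Ackr1, a chemokine receptor of venules, was called beside Vcam1, at 98.2 and 129.5 FPKM in normal and 13.7 and 47.2 FPKM in implanted ECs. Vwf was added to these calls without the 2 libraries that stood apart (1.23).

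The 24 tip-cell and angiogenic genes held 1 call each way, Vegfc (1.29) and Ramp3, and their median of 0.21 changed sign with scaling to total reads and quantile normalization. Vegfc, the growth factor of lymphatic vessels, fell from 21.3 to 8.91 FPKM in normal ECs and was at 6.85 and 7.7 FPKM in implanted ECs. No junction or identity gene of 23 was called, and Tjp1 (0.67) and Gata2 (0.80) passed without reaching the fold limit. Gata2 was called without the 2 libraries that stood apart (1.01). Of 14 genes of coagulation and fibrinolysis, 1 was called higher, and Vwf was added without the 2 libraries that stood apart (1.23). F3, tissue factor, passed below 0 at -0.99 and was called without the 2 libraries that stood apart (-1.15), and Pros1, the anticoagulant protein S, above 0 at 0.51.

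**Figure D4:**
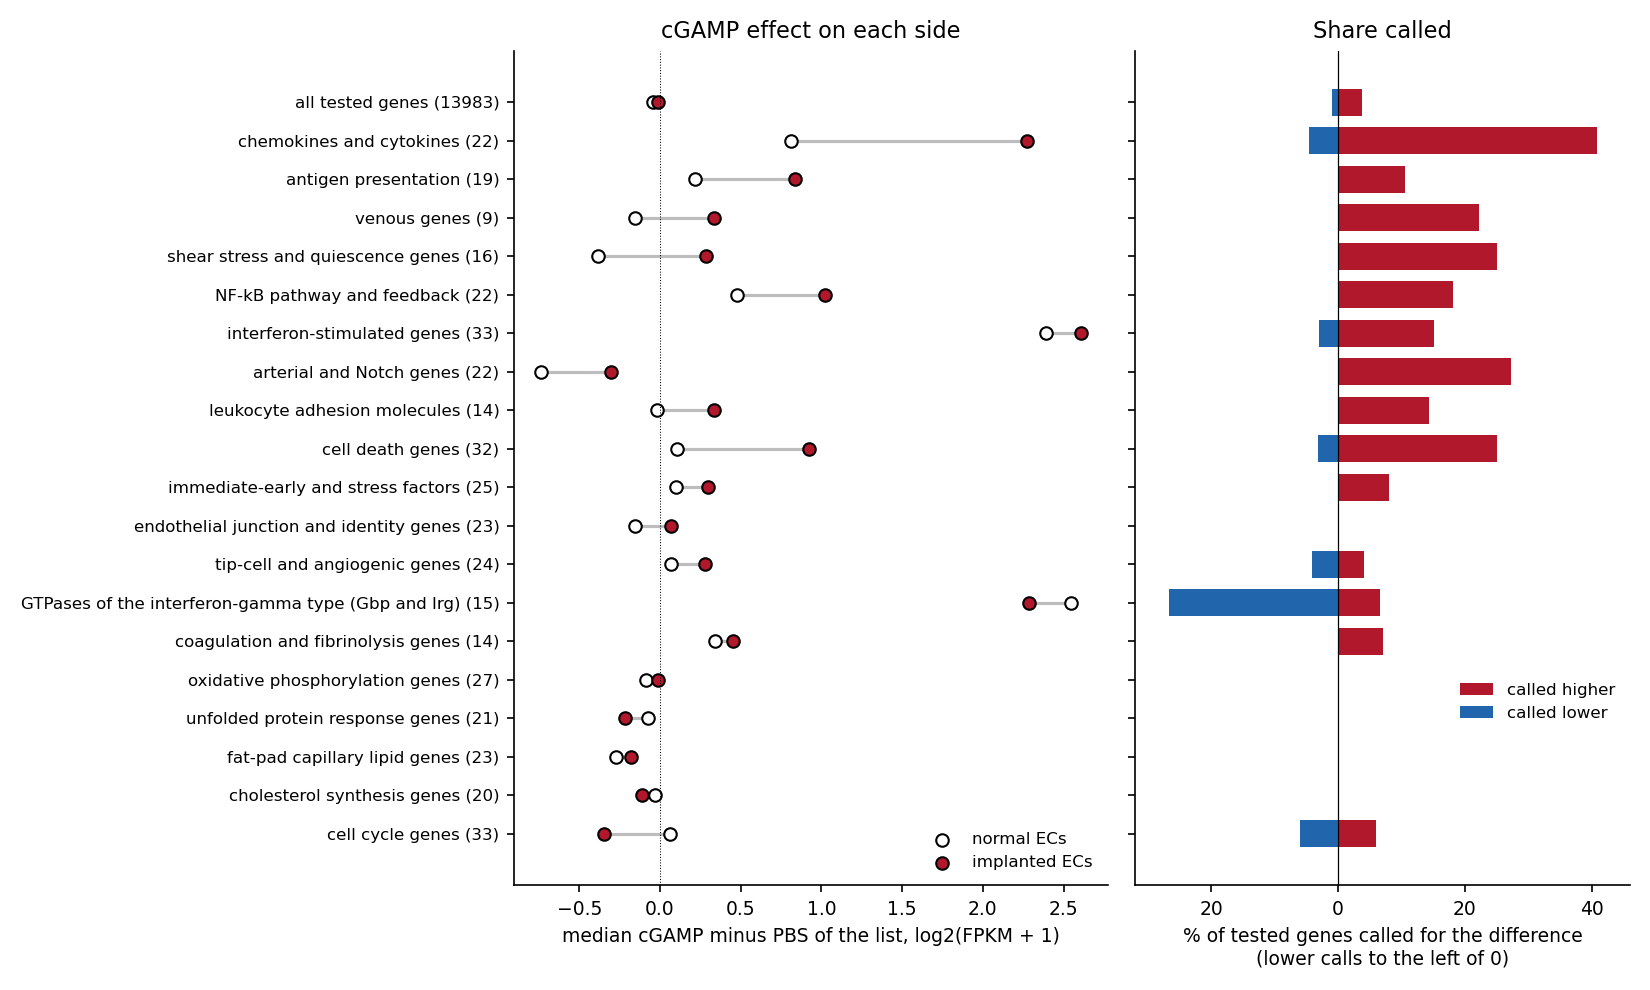
Left, the median cGAMP minus PBS change of each gene list in normal (white) and implanted (red) ECs on the log2(FPKM + 1) scale, with the number of tested genes in brackets. Right, the percentage of each list called higher (red) or lower (blue), from 40.9% of the chemokines and cytokines to none of 5 lists; the sign of the median difference changed with the scaling for 7 of the 19 lists, among them the interferon-stimulated genes and the GTPases.

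The cell cycle list had the lowest median of the 19 lists. It was -0.44, with 4 of 33 genes above 0 (7574 of all 13983 tested genes were), and -0.45 and -0.67 with quantile normalization and scaling to total reads. With all libraries Ccnd2 and the inhibitor Cdkn1a were called higher and E2f7 and Rrm2 lower, and 7 genes passed below 0. Without the 2 libraries that stood apart 2 were called higher and 5 lower, Mcm3, E2f1 and Uhrf1 being added, and with scaling to total reads 1 higher and 5 lower. Rrm2 lost its call in the fit on the 12 libraries alone and with a pseudocount of 5 (-0.71). It also lost the call without single libraries, among them normal cGAMP library 2 (-0.70) and normal PBS library 1 (-0.96). Cyclin D2 (Ccnd2) went from 43 to 38.4 FPKM in normal and from 4.47 to 17.4 FPKM in implanted ECs (1.91 ± 0.21, limma adjusted p = 2.47e-05). Cdkn1a, which halts the cycle, rose in both, from 33.7 to 72.8 and from 31.2 to 158 FPKM (1.18), and its call was lost with both other scalings and without implanted cGAMP library 1 (0.990). E2f7, a repressor of the cycle genes, rose from 1.29 to 3.52 FPKM in normal ECs and was at 2.07 and 1.78 FPKM in implanted ECs (-1.12, or -0.498 and not called with a pseudocount of 5). The epithelial markers lay on the same side, with 2 of 18 above 0 and a median of -0.41, none of them called. Their sum was 1008 to 1379 FPKM in implanted PBS and 516 to 1073 FPKM in implanted cGAMP libraries, and their part in the cell cycle values was not tested.

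Immediate-early factors were called in 2 of 25 cases, Dusp1 and Atf3, and both calls were lost with quantile normalization and with scaling to total reads. Dusp2 was also called higher without the 2 libraries that stood apart (1.30). Dusp1, a phosphatase of MAP kinases, fell from 223 to 122 FPKM in normal ECs and rose from 95.4 to 131 FPKM in implanted ECs (1.28). Atf3, a stress factor, was at 137 and 177 FPKM in normal and rose from 52.4 to 158 FPKM in implanted ECs (1.19). Of 19 genes of antigen presentation, the proteasome subunit Psmb10 (1.46) and the peptide transporter Tap2 (1.19) were called higher. A difference above 0 was found for 18 of the 19, and for 7574 of all 13983 tested genes. Without the 2 libraries that stood apart 7 were called higher, with the addition of Psmb9 (1.09) and of 4 genes of MHC class II presentation, which leukocytes also express, Ciita (1.17), Cd74 (1.67), H2-Aa (1.66) and H2-Ab1 (1.46). Tap2 lost its call with both other scalings. Psmb10 went from 22.2 to 25.5 FPKM in normal and from 35.6 to 114 FPKM in implanted ECs.

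Genes of oxidative phosphorylation (27 tested), cholesterol synthesis (20), fat-pad capillary lipid handling (23) and the unfolded protein response (21) held no call, with medians between -0.19 and 0.08. The unfolded protein response had a median difference of 0.06 while its median effects were -0.22 in implanted and -0.07 in normal ECs. Sqle, an enzyme of cholesterol synthesis, passed at -0.85 and was called without the 2 libraries that stood apart (-1.12), and Xbp1 (-0.75) and Trib3 (0.90) of the unfolded protein response passed on either side. Xbp1 fell from 112 to 69.9 FPKM in implanted ECs and was at 58.4 and 61.5 FPKM in normal ECs, and it was called lower with quantile normalization and with scaling to total reads. Among the markers of other cells, the matrix genes Dcn (1.16) and Lum (1.12) of the 9 fibroblast markers were called higher. Both calls were lost without the 2 libraries that stood apart (0.82 and 0.85) and with scaling to total reads. No leukocyte marker passed with all libraries, although 14 of 15 lay above 0 (7574 of all 13983 tested genes did) with a median of 1.51. Without the 2 libraries that stood apart the median was 1.19 and 7 of 15 were called higher, among them Ptprc, the gene of CD45 (1.92).

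MMTV-PyMT ECs, whose 6 libraries enter neither side of the difference, were used to see how the called genes respond in a second tumour. Of the 524 genes called higher, 451 (86.1%) had an effect above 0 there, against 43.6% of all tested genes, with a median of 0.43 on the log2 scale, between the -0.02 of normal and the 1.32 of implanted ECs. Their effect was nearer to that of normal ECs for 349 genes (66.6%, against 49.7% of all tested genes) and nearer to that of implanted ECs for 175. Both distances are taken to the effects by which these genes were chosen, so these counts are partly set by the selection. Of the 524, 514 had an effect above 0 in implanted ECs, so all tested genes are not a matched background. With the fold limit, 111 of the 524 (21.2%) were called higher in MMTV-PyMT ECs, against 2.49% of all tested genes (2.56% either way, 0.0715% lower). These make up 31.9% of the 348 genes called higher there. Vcam1 rose from 2.08 to 32.7 FPKM in MMTV-PyMT ECs, a log2 change of 3.44 beside 3.42 in implanted ECs. Bmp2 rose from 1.4 to 10.7 FPKM, a change of 2.28 against 4.07 in implanted and 0.07 in normal ECs. Il15 rose by 0.90, beside 0.81 in normal and 3.53 in implanted ECs.

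For the 131 genes called lower, the median effect in MMTV-PyMT ECs was -0.06, near the -0.04 of all tested genes. Of the 131, 11 (8.4%) were called higher there and 1 (0.763%) lower, against 2.49% and 0.0715% of all tested genes. Some of them rose steeply there, from 10.2 to 277 FPKM for Iigp1, from 0.577 to 36.9 FPKM for Tgtp1 and from 0.824 to 385 FPKM for Cxcl10. Their PBS levels in MMTV-PyMT ECs were below those of normal ECs, and in implanted ECs they were above them. Slc7a5, at 58.7 and 53.7 FPKM, and E2f7, at 1.83 and 2.05 FPKM, did not pass in MMTV-PyMT ECs. Of the 10 called genes with opposite effects that had the largest differences, from Il33 to Tpst1, Nuak1 alone passed there (7.42% of all tested genes passed above 0), rising from 2.93 to 5.64 FPKM.

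**Figure D5:**
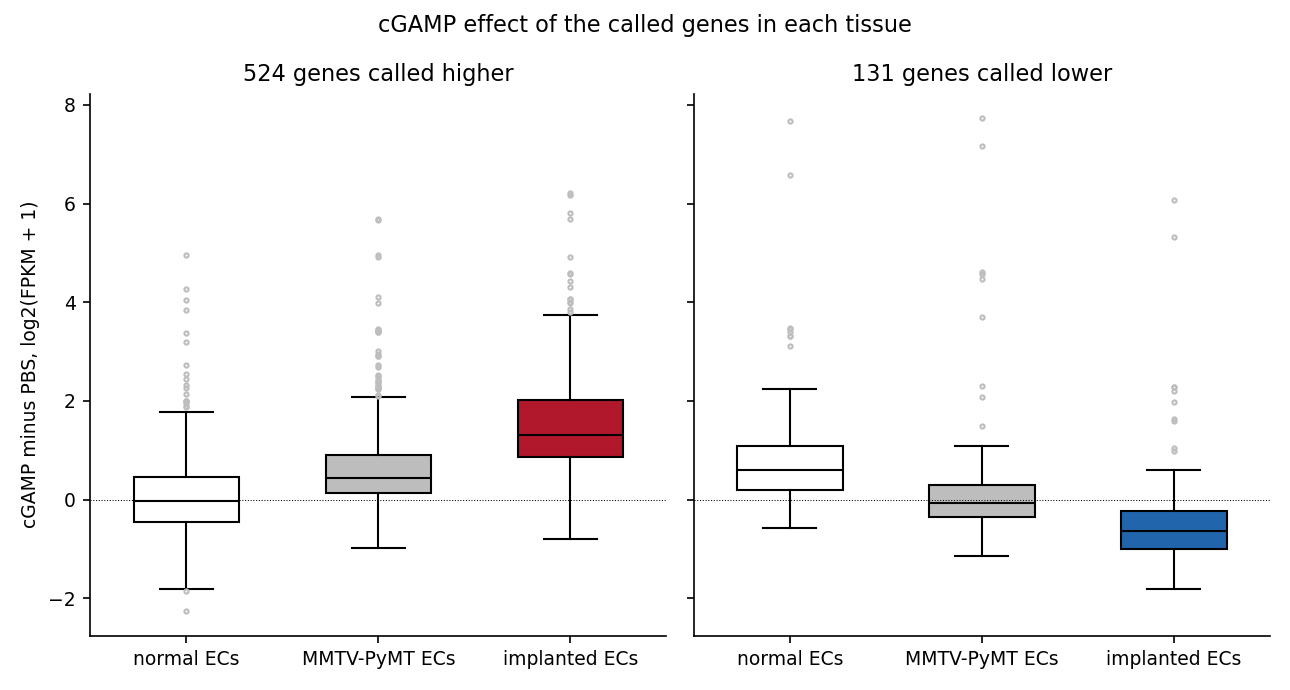
Boxes show the median and quartiles of the cGAMP minus PBS change (log2(FPKM + 1), whiskers to 1.5 times the interquartile range, outlying genes as circles) of the called genes in normal, MMTV-PyMT and implanted ECs. The MMTV-PyMT medians, 0.43 for the genes called higher and -0.06 for those called lower, lie between those of the other 2 tissues. The MMTV-PyMT median of all tested genes was -0.04.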

How the data were processed

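RNA from sorted ECs was made into libraries with NEBNext Ultra II Directional. The authors used FastQC, STAR 2.7, mm10 and HTSeq-count and deposited 1 table of FPKM values. How FPKM was computed and whether strand was used in counting are not given in the sources used here. The columns of normal ECs name no tissue and were assigned by elimination. Whole reads were recovered from the FPKM steps for 16247 of 16248 genes (within 0.1 of a whole number). The library scaling equals median-of-ratios size factors within 0.0096%. A total of 19 symbols had been turned into dates and are not named here.

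Values were tested as log2(FPKM + 1) with limma 3.58.1 in R 4.3.3, in 1 fit over all 18 libraries, on 13983 genes with at least 1 FPKM in at least 3 libraries, with Benjamini-Hochberg adjustment over all of them. Fold changes on this scale understate the change of low genes. A gene was called at an adjusted p under 0.05 and a log2 difference of at least 1. The script was tested on simulated data. Promoters came from RefSeq (GRCm38.p6) and were read with Python 3.11.15, leaving out chromosome 18.

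The genes described were the 12 with the largest difference each way among called genes with a group mean of at least 5 FPKM, up to 3 called genes with the lowest adjusted p per list (up to 2 that passed where fewer than 2 were called), up to 10 called genes with opposite effects, and 16 genes of STING signalling, death and adhesion. Some genes that the rule chose are not reported here. Other list members and neighbouring genes were chosen after their values were seen. The comparison and the lists were chosen with earlier results of these data known. Alternatives were other scalings, pseudocounts, filters and fits, and leaving out libraries. No 2 replicates agreed within sampling noise.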

Additional observations from a re-analysis of the deposited data

Results flagged for a closer look

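The cGAMP effect differed between implanted and normal ECs for 655 genes by the test of the difference itself, and 63 of them were chosen by the naming rule and are reported. These differences are given on the log2(FPKM + 1) scale, implanted minus normal.

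The largest positive log2 differences were those of Bmp2 4.01, Ms4a6b 3.17, Il33 3.07, Ifit1bl1 2.85, Gm10851 2.83, Cd40 2.77, Prkcq 2.75, Mxd1 2.74, Phf11b 2.74, Il15 2.71, Irf5 2.65, H2-T24 2.61 and Serpinb9 2.52. Next in size came Tmem158 2.50, Vcam1 2.42, Tnfsf10 2.26, Il2ra 2.13, Nuak1 2.12, Tmem100 2.10, Apod 2.02, Akr1c14 1.93, Ccnd2 1.91, Edn1 1.91, Tpst1 1.90 and Csf1 1.81. Lower positive log2 differences were found for Oas3 1.81, Icam1 1.72, Traf1 1.72, Mx1 1.66, Casp1 1.49, Casp2 1.48, Gja5 1.48, Psmb10 1.46, Klf4 1.45, Tnip1 1.44, Ackr1 1.40, Klf2 1.35 and Vegfc 1.29. The smallest of the positive log2 differences belonged to Hey2 1.29, Dusp1 1.28, Casp8 1.22, Tap2 1.19, Atf3 1.19, Cdkn1a 1.18, Herc6 1.17, Dll1 1.11 and Birc2 1.03. 

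The negative log2 differences were Snord49a -2.21, Gm22358 -1.92, Gm37982 -1.91, Gm22884 -1.90, Zbtb16 -1.86, Slc7a5 -1.78, Adamts4 -1.73 and Ramp3 -1.68, followed by Gm20403 -1.68, Cxcl10 -1.60, Trim16 -1.57, Mtss2 -1.52, Iigp1 -1.51, Irgm1 -1.26, E2f7 -1.12 and Tgtp1 -1.11.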

How the results depend on the processing

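The difference was called for 524 genes higher and 131 lower, the cGAMP effect for 857 and 153 in implanted and 422 and 96 in normal ECs, and 112 of the called genes were called in the same direction in MMTV-PyMT ECs (123 in either direction). Scaling to total reads gave 254 and 373 for the difference, 552 and 433 in implanted ECs, and 49 genes in MMTV-PyMT ECs, and quantile normalization gave 205 lower for the difference and 55 in MMTV-PyMT ECs. A pseudocount of 5 gave 269 and 18 (287 in all, 93.7% higher) for the difference, 479 and 25 (504) in implanted and 185 and 31 (216) in normal ECs, and 68 in MMTV-PyMT ECs. A pseudocount of 0.1 gave 308 lower (67.6% higher) for the difference, 544 lower of 1768 in implanted and 735 and 304 (1039) in normal ECs. Voom on the recovered reads gave 312 lower (67.2% higher) for the difference, 587 lower of 1823 in implanted and 774 and 341 (1115) in normal ECs. Without the fold limit the counts were 1751 and 851 (2602), 2841 and 2623 (5464), 1920 and 2538 (4458), and 558 in MMTV-PyMT ECs. A mean of at least 5 FPKM, which tests fewer genes, left 82 lower for the difference and 63 lower in normal ECs. Leaving out the 2 libraries apart in leukocyte markers, chosen after seeing the data, gave 170 lower in normal ECs. Leaving out 1 library at a time gave 590 to 832 for the difference (461 to 658 higher, 113 to 174 lower), 902 to 1173 in implanted ECs (775 to 978 and 127 to 216), 486 to 601 in normal ECs (392 to 447 and 94 to 157, the 157 without normal cGAMP library 1) and 97 to 129 in MMTV-PyMT ECs. The causes of these shifts were not tested. Same-numbered libraries did not deviate together (r of -0.29 to 0.26, 3 of 18 pairs above 0.1), and with the replicate number as a block the difference was called for 516 and 128 genes. Of the 65 called genes that the naming rule chose, 39 kept the call under every alternative, 26 lost it under 1 or more, and 0 changed sign. With 1 read on a gene of 1 kb worth 0.0753 to 0.120 FPKM, genes under about 1 FPKM rest on few reads.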

Other observations

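The genes in this section were chosen after their values were seen. On chromosome 2, chr2:11172108-11693193 held 5 listed genes, and 4 of them were called higher (3.75% of all tested genes were). The stretch was bounded by Prkcq and Il2ra, which were already called, so its count is partly set by that choice. A grouping of calls along the chromosome was not tested. Prkcq, a protein kinase C of T cell signalling, had a log2 difference of 2.75, Pfkfb3, a regulator of glycolysis, 1.01, the antisense gene Gm10851 2.83 and Il2ra, the alpha chain of the interleukin-2 receptor, 2.13. Il2ra was at 1.07, 5.95 and 1.16 FPKM in implanted cGAMP libraries, the highest being library 2, which also had the most leukocyte marker signal, and the difference was 1.56 without it. Between them lay Rbm17, a splicing factor, at -0.07 (limma adjusted p = 0.807). Gm10851 lies within the span of Pfkfb3 on the other strand.

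Il15ra, the receptor chain that presents IL-15 to other cells, went from 4.01 to 4.75 FPKM in normal and from 2.30 to 8.13 FPKM in implanted ECs, a log2 difference of 1.27 (limma adjusted p = 5.32e-05) beside the 2.71 of Il15. Of the kinase and transcription factor that act after STING, Tbk1 had a difference of 1.12 (limma adjusted p = 0.000156), and Irf3 one of 0.25 that did not pass (0.397). Beside the 4.01 of Bmp2, the BMP target genes Id1 (-0.14, limma adjusted p = 0.806) and Smad6 (-0.19, 0.606) did not pass, and Smad7 passed at 0.68 (0.0395). Calcrl, which Ramp3 joins to form the adrenomedullin receptor, passed at 0.74 (limma adjusted p = 0.0272), and Ramp2, its other partner, had 0.46 (0.194), beside the -1.68 of Ramp3.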
